A study of Mus musculus with 3 samples.

Results

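Dlx5, Dlx6 and the antisense transcript Dlx6os1, which share 1 locus, were followed through cell fractions sorted by fluorescence from the mouse olfactory epithelium. All 3 genes were found among the 18193 genes of the array, each with 1 probe set. They had been picked by name with earlier results of these arrays in view, so every value below describes these arrays and none is a test. All fractions came from Tgn1-2G transgenic mice, male and female, aged 5 to 8 days after birth, with the number 32 on each label, which was taken to count pooled mice. The groups were strongly fluorescent cells (GFP+++, 1000000 cells), weakly fluorescent cells (GFP+, 1300000 cells) and non-fluorescent cells (GFP-, 6800000 cells), with 1 Affymetrix array each. Every group carries the transgene, in which, as other work has it, regulatory DNA of the proneural gene Neurog1 drives GFP. The submitters describe GFP+++ as rich in immature neurons, GFP+ as slightly rich in mature neurons, and GFP- as mixed and poor in immature neurons. Signals are MAS5 intensities, and where 3 are listed they stand in the order GFP+++, GFP+, GFP-.

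Dlx genes encode homeodomain transcription factors that bind AT-rich DNA, and in mammals they lie in pairs that are transcribed towards each other and share enhancers. Dlx5 is known from mutant mice to be needed for the growth of olfactory axons to the bulb, and it also acts in craniofacial bone and in forebrain interneurons. Dlx6os1, also called Evf2, is a long noncoding RNA transcribed across Dlx6 on the opposite strand. In the embryonic mouse forebrain it is known to bind Dlx proteins and to take part in the control of Dlx5 and Dlx6.

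In the RefSeq gene table of the assembly GRCm38.p6 the locus lies on chromosome 6. Dlx6 and a short antisense gene, Dlx6os2, lie within the span of Dlx6os1, and Dlx5 follows outside it. Of the 3 genes, Dlx6os1 matched the RefSeq promoter table of the same assembly, with 2 start sites. Both windows run from 250 bases before to 50 bases after the start, on the minus strand, at chr6:6869484-6869783 and chr6:6861634-6861933. They are shown because a homeodomain factor and this transcript share the locus, with each TAATTA, a core that many homeodomain proteins bind, in capitals.
Dlx6os1 start 1: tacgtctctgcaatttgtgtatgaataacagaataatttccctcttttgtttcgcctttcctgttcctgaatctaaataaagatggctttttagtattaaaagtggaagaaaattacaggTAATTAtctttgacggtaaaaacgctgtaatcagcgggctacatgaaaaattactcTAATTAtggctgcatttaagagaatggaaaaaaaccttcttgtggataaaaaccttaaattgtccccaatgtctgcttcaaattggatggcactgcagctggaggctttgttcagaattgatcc
Dlx6os1 start 2: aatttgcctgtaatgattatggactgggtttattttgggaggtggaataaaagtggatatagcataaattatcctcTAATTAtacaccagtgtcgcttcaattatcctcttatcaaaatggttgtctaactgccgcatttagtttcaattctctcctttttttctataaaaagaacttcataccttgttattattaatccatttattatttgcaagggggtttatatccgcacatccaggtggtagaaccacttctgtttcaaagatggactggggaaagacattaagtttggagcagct

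The window of the first start held 2 TAATTA, at positions -130 to -125 and -74 to -69 counted from the start, and that of the second held 1, at -174 to -169. TAATTA reads the same on both strands. Of 32817 promoter windows of this length in the table, 5.30% held at least 1 TAATTA and 0.491% held at least 2. Both windows were rich in A and T, with a GC content of 35.7% and 35.3% against a median of 52.7% over all windows, and such base composition makes AT motifs more frequent. The E-box CANNTG, the class of site that Neurog1 and Nhlh1 bind, occurred 1 time in each window, as it did in 72.3% of all windows. Neither its variant CAGATG (17.2% of windows, either strand) nor CCCNNGGG, a core bound by Ebf factors (13.7%), was in either window. TATAAA, the TATA box, occurred 2 times in the second window, 1 time on each strand, and in 13.6% of all windows. A match is a description of these letters and shows no binding.

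Dlx5 and Dlx6os1 were brightest in GFP+++ and all but equal in GFP+ and GFP-, while Dlx6 differed little among the fractions. The Dlx5 signal was 3265 on the GFP+++ array, 1373 on the GFP+ array and 1410 on the GFP- array. Its GFP+++ signal was 2.32-fold that of GFP- (log2 1.21) and 2.38-fold that of GFP+ (log2 1.25). The weakly fluorescent and the negative cells could not be told apart by Dlx5, whose log2 fold of GFP+ over GFP- was -0.04.

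Dlx6os1 had the same order. Its signal was 1050 on the GFP+++ array, 407 on the GFP+ array and 403 on the GFP- array, which made GFP+++ 2.61-fold over GFP- (log2 1.38) and 2.58-fold over GFP+ (log2 1.37). GFP+ over GFP- was at a log2 fold of 0.02. The Dlx6 signal was 355 on the GFP+++ array, 260 on the GFP+ array and 286 on the GFP- array. It was again highest in GFP+++, but 1.24-fold over GFP- (log2 0.31) and 1.37-fold over GFP+ (log2 0.45). Its GFP+ over GFP- was at -0.14. Signals of different probe sets share no scale, so the higher numbers of Dlx5 do not show that it was more abundant than Dlx6.

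With 1 array per fraction there is no spread between replicates and no p-value. The error that the arrays themselves show was taken from genes with several probe sets: for GFP+++ over GFP- the log2 folds of probe sets of 1 gene had an SD of 0.30 over 4633 genes. It depended on brightness, over signal ranges chosen after the values were seen. The SD was 0.20 at 16 to 32 times the background floor of 104, where Dlx5 lay (257 genes), 0.30 at 4 to 8 times the floor, where Dlx6os1 lay (495 genes), and 0.35 at 2 to 4 times the floor, where Dlx6 lay (438 genes). The Dlx5 and Dlx6os1 folds of GFP+++ over GFP- were thus larger than this probe set error, and that of Dlx6 was not. This holds for the scaling used here, as the Dlx6 log2 fold was 0.51 with quantile normalization and 0.73 with median scaling. In GFP+++ over GFP+ the Dlx6 log2 fold of 0.45 was above the SD of 0.34 for its signal range. None of the 3 genes differed between GFP+ and GFP- by more than the pooled SD of 0.24 for that pair. Variation among animals, sorts and labelling is not part of this error.

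**Figure D1:**
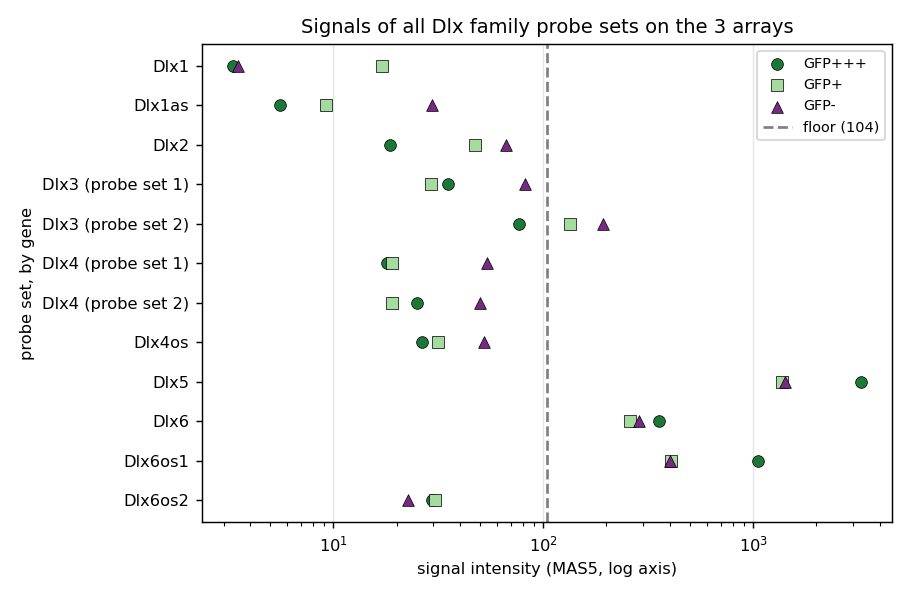
Signal intensity (log axis) of each of the 12 probe sets of Dlx family genes on the GFP+++ (circles), GFP+ (squares) and GFP- (triangles) arrays, 1 array each, with the background floor of 104 as a dashed line. Dlx5, Dlx6 and Dlx6os1 lie right of the floor on all 3 arrays, and of the rest only the second Dlx3 probe set passes it, in GFP+ and GFP-.

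Dlx5 and Dlx6os1 were next read against all genes. Of 12235 genes above the floor on at least 1 of the arrays, 1.92% reached a 2-fold excess in GFP+++ over GFP- and 12.4% a 2-fold deficit; such genes are called up and down here. The count of genes that were up was 235 and depended on the scaling, since it was 1129 with each array scaled by its median. Dlx6os1 ranked 54 and Dlx5 ranked 112 from the top, and Dlx6 ranked 2967. In GFP+++ over GFP+, where 0.985% of 11881 genes were up and 9.34% down, the ranks were 21 for Dlx6os1, 37 for Dlx5 and 1294 for Dlx6. These contrasts share the GFP+++ array and were in view when the genes were chosen, so the 2 of 3 genes past 2-fold are a description. In GFP+ over GFP-, where 0.607% of 12196 genes were up and 0.804% down, 0 of the 3 passed 2-fold.

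The folds within the locus were unequal. The log2 fold of GFP+++ over GFP- was 0.90 larger for Dlx5 than for Dlx6, and 1.07 larger for Dlx6os1 than for Dlx6, against an SD of 0.43 for a difference between 2 probe sets. Dlx6os1 and Dlx5 differed by 0.17, within that SD. With quantile normalization, which evens out the arrays' signal distributions, the gap between Dlx5 and Dlx6 was 0.60 and that between Dlx6os1 and Dlx6 was 0.94. Dlx6 reached 3.40 times the floor at its brightest, against 31.3 times for Dlx5 and 10.1 times for Dlx6os1, and the part of this in its smaller fold was not tested. Dlx6os1 and Dlx6 overlap on opposite strands, probe sequences were not used here, and which strand each probe set reads was not checked.

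The other antisense gene of the locus, Dlx6os2, lay under the floor on all arrays (29.6, 30.4 and 22.6). So did Dlx1 and Dlx2, the linked pair that acts in forebrain interneurons. Dlx1 gave 3.33, 17.1 and 3.52, and Dlx2 gave 18.6, 47.1 and 66.2. The antisense gene Dlx1as reached at most 29.6, both probe sets of Dlx4 at most 53.7, and Dlx4os at most 52.0. Dlx3, a factor of skin and placenta, was the only other family gene above the floor. Its brighter probe set gave 76.8, 134 and 193, so that GFP+++ was at least 1.85-fold below GFP-, and its other probe set reached at most 81.7. Values under the floor have no order. Of the 10 Dlx-named genes, Dlx5, Dlx6 and Dlx6os1 were thus those above the floor on all 3 arrays. Over all genes 10458 of 18193 were.

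**Figure D2:**
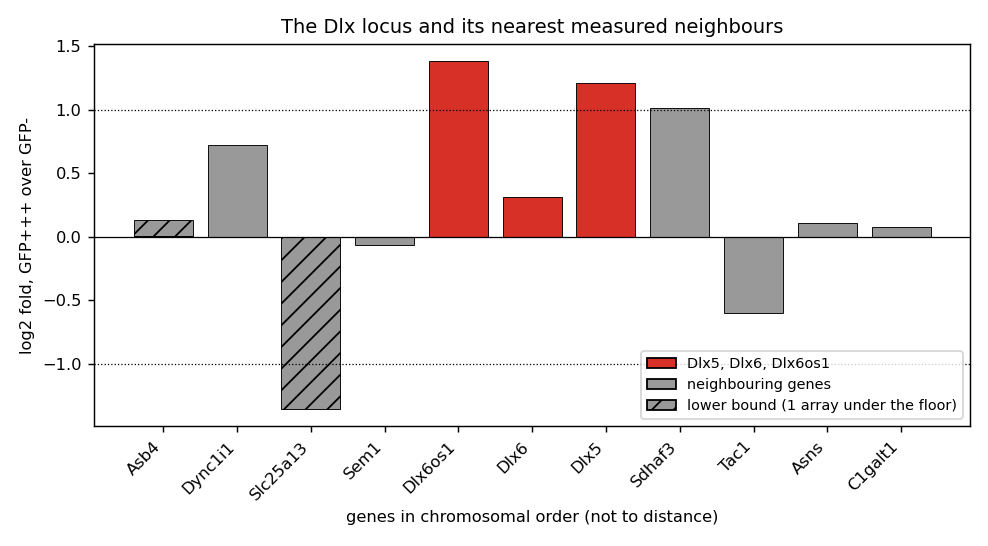
Log2 fold of GFP+++ over GFP- for Dlx6os1, Dlx6 and Dlx5 (red) and the 4 nearest measured genes on each side (grey), in chromosomal order and not to distance. Dlx6os2, under the floor on all arrays, has no bar, hatched bars are lower bounds, and dotted lines mark 2-fold. Sdhaf3, the nearest measured gene beyond Dlx5, is the 1 neighbour past 2-fold upwards and Slc25a13 the 1 past it downwards.

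The genes around the locus differed in direction. Sdhaf3, an assembly factor of mitochondrial complex II and the second annotated gene beyond Dlx5, gave 2533, 1512 and 1252 (log2 1.02 for GFP+++ over GFP-). Unlike Dlx5, it also had a positive log2 fold of 0.27 in GFP+ over GFP-, and its second probe set lay under the floor on all arrays. Farther on that side, Tac1, the precursor of substance P, was at -0.60, Asns, asparagine synthetase, at 0.11, and C1galt1, a glycosyltransferase, at 0.08. The dimmer probe sets of C1galt1 were at -0.65 and -0.74. On the side of Dlx6os1, the nearest measured gene was Sem1, a proteasome subunit, with 7759, 5884 and 8122. Its probe sets did not go the same way (log2 -0.07, which turned positive with median scaling, and 0.38). Slc25a13, a mitochondrial aspartate and glutamate carrier, was lower by at least 2.55-fold in GFP+++ over GFP-. Dync1i1, a dynein chain, was at 0.72, and Asb4 passed the floor in GFP+++ alone, at 115.

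Which genes had a profile like that of each member was read from the pair of log2 folds over GFP-, by Euclidean distance among 10458 genes above the floor on all 3 arrays. Nearest to Dlx5 were Ooep (distance 0.02), Fam43a (0.07), Ina (0.08), Nhlh1 (0.09), Stac (0.10) and Fam169b (0.11). Ina encodes a neuronal intermediate filament protein, and Nhlh1 a helix-loop-helix factor of newly formed neurons. Nhlh1 gave 4211, 1856 and 1794, and Ina gave 4205, 1775 and 1749. Both had a peak in GFP+++ and near equal signals in the other fractions, a shape that follows from choosing genes by these folds.

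Nearest to Dlx6os1 were Sox13 (0.01), Zfp341 (0.04), Igdcc3 (0.11), Mapt (0.11), Ina (0.12) and Rwdd1 (0.12). Mapt encodes the axonal microtubule protein tau, and gave 1699, 731 and 676. Igdcc3 and Rwdd1 depend on the probe set chosen, and their median over probe sets was 0.00 and 0.64 in GFP+++ over GFP-. In such a median a probe set under the floor on both arrays counts as 0, so 0.00 need not mean equal signals. Dlx6os1 was the 16th nearest gene to Dlx5, at 0.18, and Dlx5 the 12th nearest to Dlx6os1. Profiles within 0.3, a distance chosen after the values were seen, were shared by 75 genes for Dlx5, 38 for Dlx6os1 and 2352 for Dlx6, so the 6 genes nearest to Dlx6 (Rpap3, Ctnnd2, Ankrd49, Irf2bpl, Zfp292 and Cxxc1) single out little. With quantile normalization 5 of the 6 genes named for Dlx5 and 6 of 6 for Dlx6os1 stayed among the nearest 100, and 0 of 6 for Dlx6. Among the nearest 6 themselves, 1 stayed for Dlx5, 3 for Dlx6os1 and 0 for Dlx6. A likeness over 3 arrays says nothing of shared function or control.

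**Figure D3:**
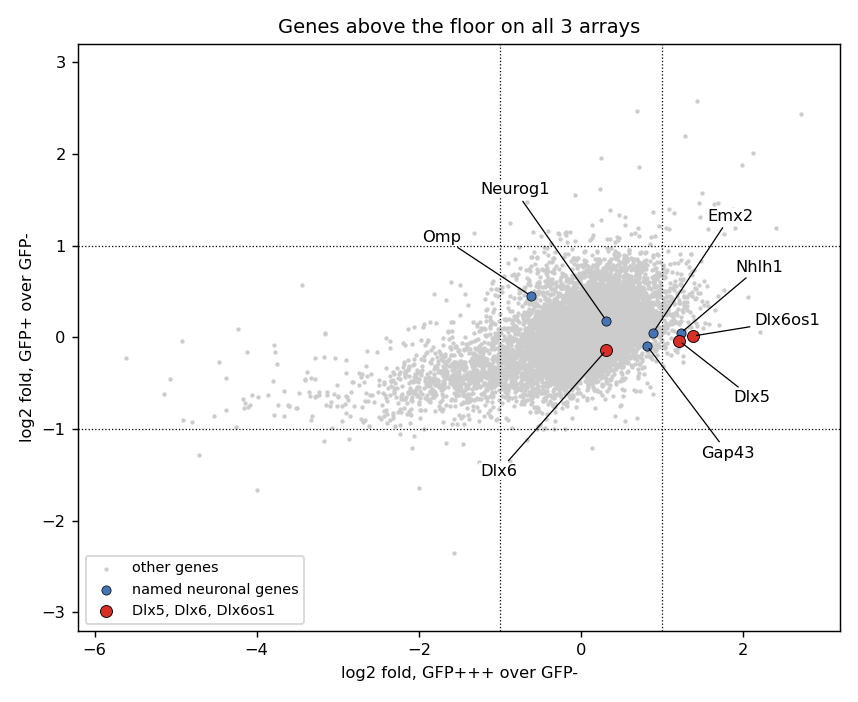
Log2 fold of GFP+++ over GFP- (horizontal) against GFP+ over GFP- (vertical) for the 10458 genes above the floor on all 3 arrays, which share the GFP- array. Dlx5 and Dlx6os1 (red) lie past the 2-fold line on the horizontal axis and at -0.04 and 0.02 on the vertical one, close to Nhlh1, while Dlx6 lies within the bulk of genes.

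Among transcription factors of olfactory sensory neurons (OSN), Dlx5, which was picked with its fold in view, stood near the top. Of 18 such factors, not counting Dlx genes, 1 was up in GFP+++ over GFP- and 4 were down, against 1.92% and 12.4% of all genes. Their median log2 fold was 0.11, against 0.0090 over all genes. The 1 that was up was Nhlh1 (1.23). Emx2, a homeodomain factor needed for normal odorant receptor expression, was at 0.89, with signals of 4871, 2726 and 2631. Its profile was like that of Dlx5 in shape but smaller. Olig2 also had a peak in GFP+++ (3560, 1871 and 2109, log2 0.76). Uncx was at 0.61, Rcor1 at 0.57 and Neurod1 at -0.71. Of the 18 factors 10 lay above 0 and 8 below, while 50.7% of all measured genes lay above 0. Lhx2, a LIM homeodomain factor, had 0.27. Ebf3 (0.17) and Ebf2 (0.05), helix-loop-helix factors of OSN, lay near 0, while Ebf1 was at 0.29 and Ebf4 at 0.62. In GFP+ over GFP- Ebf4 was at 0.77. Atf5 also lay near 0 (-0.01), and its sign turned with median scaling and with quantile normalization. Nfia (-2.68), Nfib (-2.95), Nfix (-2.70) and Mef2c (at least 3.28-fold lower) were down.

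Factors of the olfactory placode and of early precursors went both ways. Of 11 measured, 7 were down and 0 up, against 12.4% and 1.92% of all genes, and the median log2 fold was -1.37. The other 4 lay above 0, among them Emx2 and Lhx2, given above, which also belong to this list. Eya2, a transcriptional coactivator, was at -2.08, Pax6, a master factor of placode and eye, at -1.94, Sox2, a factor of neural stem cells, at -1.37, and Otx2 at -1.38. Pax6 rested on its brightest probe set. The median over its 5 probe sets was 0.00, but there a probe set under the floor on both arrays counts as 0. Eya1 (-1.93), Sp8 (-1.13) and Six4 (at least 3.43-fold lower) were the others that were down. Neurog1 itself gave 1492, 1363 and 1202 (log2 0.31), and Insm1, a zinc finger factor of precursors, was at 0.18.

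**Figure D4:**
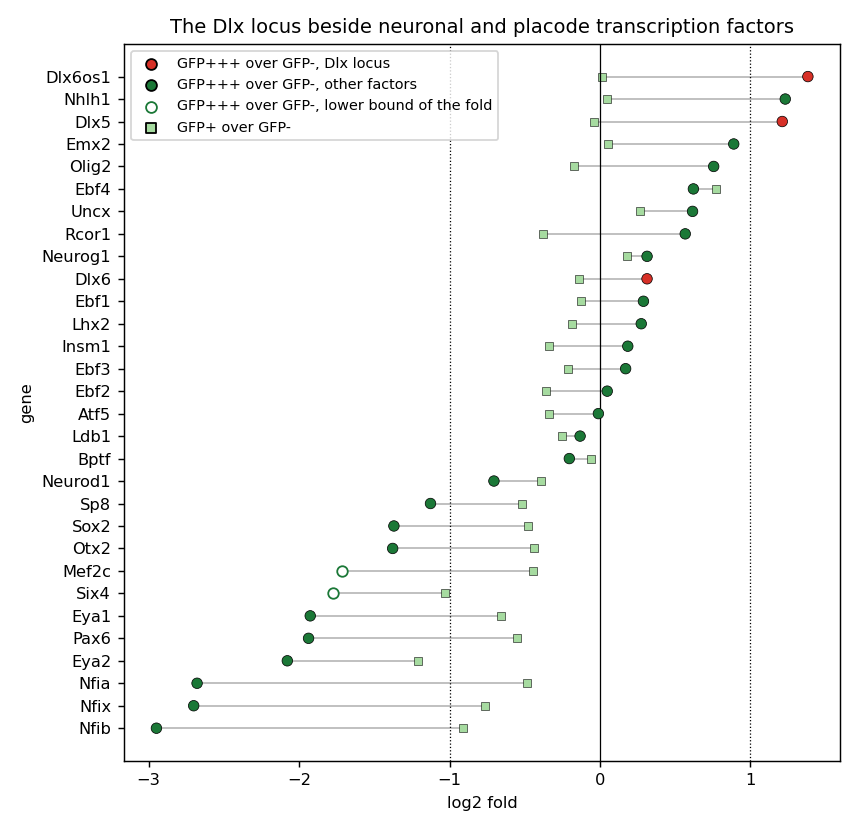
Log2 folds of GFP+++ over GFP- (circles, red for the Dlx locus, open for lower bounds) and of GFP+ over GFP- (squares) for the OSN and placode transcription factors above the floor, sorted by the former. Dlx6os1 (1.38), Nhlh1 (1.23), Dlx5 (1.21) and Emx2 (0.89) head the order, and Nfia, Nfix and Nfib close it.

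Of the Msx genes, homeodomain counterparts that oppose Dlx5 in bone and face, Msx1 was lower by at least 2.79-fold in GFP+++ (53.2, 171 and 292), Msx2 at least 1.26-fold lower, and Msx3 under the floor on all arrays. Maged1, an adaptor that binds Dlx5, gave 2141, 2061 and 2401 (log2 -0.17, which turned positive with median scaling). Its partner Ndn was at -2.17, and Grip1, a scaffold protein that binds Dlx factors, at 0.50. Of these 6 genes 5 were measured, of which 0 were up and 2 down, and the median was -0.34. With 1.92% of all genes up, 0 of 5 is near the background. Over all genes 12.4% were down, and 5 genes are few to set against that share.

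Of 8 measured genes whose proteins are known to bind Dlx6os1 RNA in mouse forebrain, 1 was down, Sox2, and 0 were up. Their median was 0.14. Over all genes 12.4% were down and 1.92% up, so both counts are near the background. The chromatin remodelling subunits Smarcb1 (0.57), Smarca4 (0.44) and Smarcc2 (0.23) lay above 0, as did Akap8l (0.25). The cohesin subunits Smc1a (-0.38) and Smc3 (0.05) and the helicase Dhx9 (-0.08) lay near or below 0, and each of these 3 changed sign under a scaling. Dlx1, also a partner, was under the floor.

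Genes that Dlx factors are known to act on in mouse forebrain or bone had folds of both signs, 3 above 0 and 6 below. Over all genes 12235 of 18193 were measured in GFP+++ over GFP-, and 50.7% of these lay above 0. So few genes cannot be set apart from that share. Of 12 with a probe set, 9 were measured, 0 of them up and 3 down, and the median was -0.48. Over all genes 1.92% were up and 12.4% down. Down were Ibsp, bone sialoprotein (at least 24.2-fold lower), Nrp2, an axon guidance receptor (-1.33), and Sp8 (-1.13). Gad1 and Slc32a1, which make and load the transmitter GABA, were under the floor on all arrays, and Gad2 gave 144, 132 and 144. Cxcr4, a chemokine receptor, was at 0.41 and Map2, a dendritic protein, at 0.14. Pak3 lay at -0.14 and changed sign with median scaling.

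The BMP pathway is known to switch on Dlx5 in ectoderm and bone. Of 19 measured genes, 0 were up and 6 down, against 1.92% and 12.4% of all genes, and the median was -0.41. The ligand Bmp4 was at least 2.61-fold lower and the receptor Bmpr1b at -1.73. By the median over its probe sets Bmpr1b was at 0.00, with any probe set under the floor on both arrays counted as 0. Id1 (-1.86) and Id3 (-1.26), common targets of the pathway, were lower, as were the inhibitors Smad6 (at least 3.09-fold) and Fst (at least 2.45-fold). Bmp7 was at 0.57 and Smad1 at 0.39. Bmpr2 (-0.18) and Id4 (-0.04) changed sign with median scaling, and Smad4 was at 0.09. In GFP+ over GFP-, Bmp6 was at 1.15.

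Since each fraction is a mixture, fewer cells of a type and less RNA per cell cannot be told apart, and the levels of cell type markers are given beside the Dlx values. For the marker counts that follow, 1.92% of all genes were up in GFP+++ over GFP-, 12.4% were down and 50.7% lay above 0. Of 14 immature OSN markers, 2 were up in GFP+++ over GFP-, 0 were down and 12 lay above 0 (median 0.28; 0.69 with median scaling). Their signals summed to 117876, 80312 and 96355. Gap43, the growth cone protein, gave 11233, 6006 and 6395 (log2 0.81 over GFP-), and Crmp1, a semaphorin signalling protein, was at 1.07. Dpysl3 (0.14) and the stathmins Stmn2 (0.24) and Stmn1 (-0.06, with either other scaling above 0) had small folds. Dlx5 and Dlx6os1 thus had a larger log2 fold than 13 and 14 of the 14 markers, Nhlh1 being the exception for Dlx5. Both were picked with these folds in view, so this order is a description. The part of immature neuron content in their folds was not tested.

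Mature OSN markers went the other way, 12 of 13 lying below 0 in GFP+++ over GFP- and 1 of them down (Pde1c, -1.02). The median was -0.46, and -0.04 with median scaling. Omp, the classic protein of mature OSN, gave 5041, 10615 and 7748. S100a5 was at -0.75, Stoml3 at -0.46 and Gnal at -0.47. Of 7 progenitor markers, 0 were up and 2 down, around a median of -0.17 that turned to 0.24 with median scaling. The list was split, with 3 above 0 and 4 below. Kit was at -1.87 and Lgr5 at least 2.26-fold lower, and Neurod1 (-0.71) and Hes6 (-0.17) also lay below 0. Neurog1 (0.31), Insm1 (0.18) and Ezh2 (0.0013) lay above it. Hes6 changed sign with median scaling and Ezh2 with quantile normalization. All 11 markers of dividing cells were down (median -1.68), such as Top2a (-1.79) and Mki67 (-1.70).

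Dlx5 is also known from cells of bone and face and from bulb interneurons. Of 12 osteoblast and cranial mesenchyme markers with a probe set, 3 were above the floor in GFP+++, 8 in GFP+ and 10 in GFP-. Over all genes 59.0%, 64.2% and 66.1% were above the floor on these arrays, so the 8 of 12 in GFP+ are near that share. The signals of these markers summed to 1764, 15731 and 25709, and 8 of 10 measured were down in GFP+++ over GFP-. Col1a2 (-4.08), Postn (-3.98), Col1a1 (-3.41) and Ibsp had the largest differences, and Ibsp was under the floor in GFP+++. Sp7, the osteoblast factor, was above the floor in GFP- alone, at 145. Of 9 bulb interneuron markers 3 were above the floor in GFP+++, namely Calb2 (0.53), Gad2 and Sp8, and the list summed to 13281, 10782 and 11225. Calb2, also known from OSN, made up 11992 of the sum in GFP+++, and Gad1, Slc32a1, Th and Pvalb were under the floor throughout. Of the 5 measured, 0 were up and 2 down. The median of -0.17 was the bound of Calb1, whose sign turned with median scaling and with quantile normalization. The part of these cells in the Dlx signals was not tested.

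Markers of the other cell types had negative medians in GFP+++ over GFP-, and 0 of them were up. Down were 8 of 8 immune (median -4.03, Csf1r at -5.07), 8 of 8 gland (median -2.68, Bpifa1 at -2.07), 6 of 6 ensheathing glia and Schwann cell (median -1.79, Fabp7 at -2.14), 5 of 8 basal cell (median -1.76, Krt5 at -2.08), 5 of 9 sustentacular (median -1.32, Cyp2g1 at -0.67) and 1 of 6 endothelial markers (median -0.53, Cldn5 at -2.55). In GFP+ these medians were between -0.75 and -0.31. Dlx5 and Dlx6os1 were at -0.04 and 0.02 there.

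The arrays had unequal median signals of 88.2, 107 and 118, which bears on every fold. When each array was scaled by its median in place of its trimmed mean, the median log2 fold of all genes in GFP+++ over GFP- went from 0.0090 to 0.42. The folds of Dlx5, Dlx6 and Dlx6os1 then were 1.63, 0.73 and 1.80. Relative to the median of all genes they were 1.20, 0.30 and 1.37 with the trimmed mean and 1.21, 0.31 and 1.38 with the median. With quantile normalization the relative values were 1.06, 0.46 and 1.40. In GFP+ over GFP- the sign of Dlx5 and of Dlx6 turned with median scaling, to 0.10 and 0.0011.

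**Figure D5:**
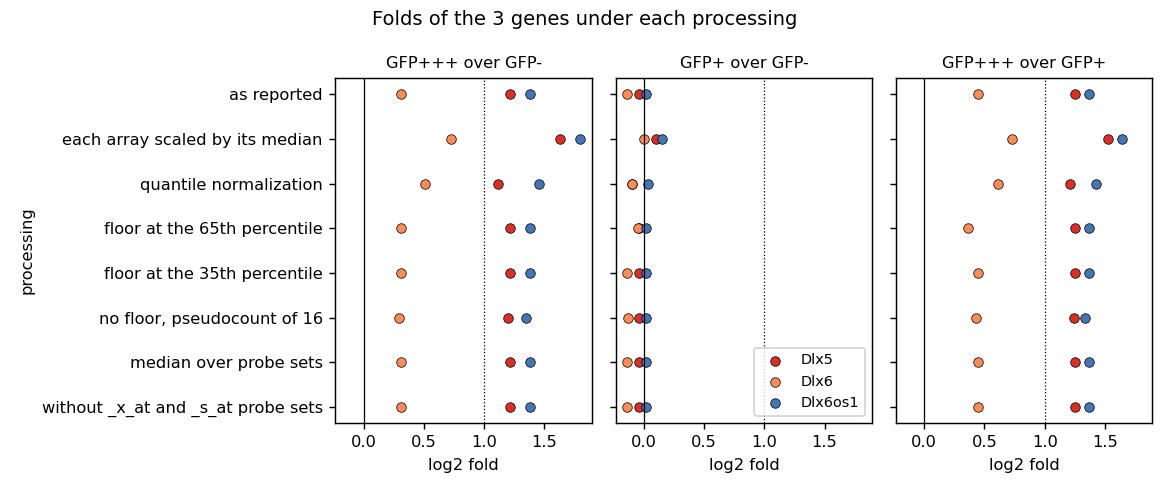
Log2 folds of Dlx5, Dlx6 and Dlx6os1 in each comparison (panels) as reported and under 7 other ways of processing (rows), with the solid line at 0 and the dotted line at 2-fold. Dlx5 and Dlx6os1 stay right of the 2-fold line in both comparisons of GFP+++, Dlx6 stays left of it, and all 3 stay near 0 in GFP+ over GFP-.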

How the data were processed

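RNA of 3 sorted fractions was hybridised as biotin-labelled cRNA to 1 Affymetrix array each. The authors deposited linear signal intensity per probe set, made with MAS5 per the submitters' processing notes (version and settings: not given in the sources used here). Of 45101 probe sets, 34958 carried a single symbol, 932 several and 9211 none; 34754 were matched to RefSeq (GRCm38.p6) by Entrez identifier. Each array was brought to the same 2% trimmed mean. Values below the pooled median signal, 104, were set to it as a floor before log2 folds. Genes below it on both arrays got no fold, and with 1 array below it the fold is a bound ("at least"). The brightest probe set on average stood for its gene.

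The members, the 20 gene lists and the naming rule were chosen with earlier results of these data known. The rule took every Dlx gene, the measured Dlx and Evf2 partners, 4 neighbours on each side, the 6 nearest profiles, and from other lists the brightest members and those past 2-fold. Not all of these are printed, and further list members, such as Emx2, were added once values were known. The fold calculation was tested on simulated arrays with known folds, for GFP+++ over GFP- and under the reported processing. The other steps and the alternatives were not tested in this way. The 7 alternatives are given in the closing section. Python 3.11.15, numpy 2.4.6, pandas 2.3.3 and matplotlib 3.10.9 were used.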

Additional observations from a re-analysis of the deposited data

How the results depend on the processing

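The folds of Dlx5, Dlx6 and Dlx6os1 kept their side of 2-fold in all 3 comparisons under the 7 alternatives, and in GFP+++ over GFP- they moved beyond the probe set SD with median scaling alone, to 1.63, 0.73 and 1.80. Each has 1 probe set, so the choice among probe sets could not change them. Counts over all genes moved far more. At least 2-fold higher in GFP+++ over GFP- (235 as reported) were 1129 genes with median scaling, 367 with quantile normalization, 152 with the 65th percentile as floor and 355 with no floor and a pseudocount of 16. At least 2-fold lower (1522) were 2335 with the 35th percentile, 746 with the 65th and 2782 with no floor. In GFP+ over GFP- the higher count (74) was 131 with median scaling, 118 and 40 with the 35th and 65th percentile and 165 with no floor. The lower count (98) was 46 with median scaling, 220 and 38 with these percentiles, 335 with no floor and 64 with the median over probe sets. In GFP+++ over GFP+ the higher count (117) was 416 with median scaling, 179 with quantile normalization, 71 with the 65th percentile, 252 with no floor and 76 with the median over probe sets. The lower count (1110) was 1814 and 526 with the 35th and 65th percentile, 2119 with no floor and 712 with the median over probe sets. A lower floor counts more dim genes by construction. The median over probe sets takes a probe set under the floor on both arrays as 0. Median scaling put the median log2 fold of all genes at 0.42 in GFP+++ over GFP-. How much of the moves these account for, and the cause of the others, was not tested. Of 182 genes followed 22 changed sign in GFP+++ over GFP- with median scaling and 7 with quantile normalization. No paired analysis was possible because each group has 1 array. Precision is limited by the number of arrays. The Dlx6 fold of GFP+++ over GFP- was 0.31 with either other floor and 0.30 with none.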

Other observations

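Of 10458 genes above the floor on all arrays, 61 reached a 2-fold excess in GFP+++ over each of the other fractions, and 44 of these also had GFP+ within 0.25 of GFP- on the log2 scale. Both limits were chosen after the values were seen. Of 6 genes of inhibitory transmission with a probe set, 1 was above the floor, Gad2 (log2 0.00 in GFP+++ over GFP-), while Slc6a11, Abat and Gabra2 stayed under it on all arrays. Over all genes 59.0% to 66.1% were above the floor, depending on the array.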
